A study of Homo sapiens with 12 samples.

Results

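10 genes of the JAK-STAT3 and gp130 signalling axis were followed through 12 RNA-sequencing libraries of PC9, a lung adenocarcinoma cell line of human origin whose growth depends on mutant EGFR. They were the receptor chains IL6ST and LIFR, the kinases JAK1 and JAK2, the transcription factors STAT3, STAT5A, STAT5B and STAT6, and the feedback inhibitors SOCS2 and SOCS3. The genes were taken by symbol, with no measured value in the rule, but were chosen with earlier results of these data known. They make up 10 of the 62754 genes in the count table. All 10 passed the filter on low counts, which left 17115 genes for testing.

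Cytokines of the IL-6 family signal through IL6ST, the shared receptor chain also called gp130, which pairs with LIFR to receive leukaemia inhibitory factor (LIF). The receptor chains have no enzyme activity of their own, and JAK kinases bound to their tails phosphorylate both the receptor and the STAT proteins that dock there, after which STAT dimers enter the nucleus and bind DNA. STAT3 is the main STAT below gp130, SOCS3 is a STAT3 target that binds gp130 and shuts it down, and SOCS2 is best known as a STAT5 target that restrains growth hormone signalling. In lung cancer cells, STAT3 signalling through gp130 is known as a route by which cells survive when EGFR is blocked.

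TDP1 wild-type cells without drug (untreated WT) were compared with wild-type cells kept in 1 µM erlotinib, an inhibitor of the EGFR kinase, either for 7 days, when the labels call them drug-tolerant cells (DTC), or for 28 days, when they are called drug-tolerant expanded cells (DTEC). The other group was KO2, a TDP1 knockout line without drug (KO), and TDP1 encodes the phosphodiesterase that removes topoisomerase 1 trapped on DNA. Each group had 3 libraries of polyadenylated RNA. All cells derived from 1 subclonal PC9 line, the replicate cultures were split from a common flask and then kept apart, and KO rested on 1 line, so p-values measure the spread between such cultures. Knockout cells under drug were not among the groups, and RNA levels say nothing of phosphorylated JAK or STAT protein.

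The libraries held 25572691 to 38373679 estimated counts, and values are given in CPM, depth-scaled counts, after trimmed-mean (TMM) scaling. TDP1 stood at 10.8 ± 0.647 CPM (SD, n = 3) in KO against 26.3 ± 1.60 in untreated WT. Its level was also low in the wild-type DTC libraries, at 13.96 ± 1.555 CPM, and was 26.6 ± 1.54 CPM in DTEC. DTC replicate 1 stood farthest from its group, with a median absolute log2 gap of 0.300 to the other 2 DTC libraries against 0.0779 to 0.226 elsewhere, and each DTC result below is followed by its value without that library where the call or the sign differed. Scaling to total counts alone raised the median log2 fold change of all tested genes by 0.35 in DTC against untreated WT and by 0.17 in DTEC against untreated WT, and lowered it by 0.19 in DTEC against DTC. It moved the share of higher genes among all calls from 50.5% to 68.4%, from 49.7% to 63.7% and from 51.9% to 37.4% in these comparisons, and from 64.1% to 78.8% in KO. All 6 epithelial markers were above the counting floor of 3 counts in every library, with a summed level of 9020 to 9500 CPM in untreated WT and 4680 to 5290 CPM in DTC. Of 6 lung epithelial markers, 1 was above the floor in untreated WT and 2 in each other group, and SFTPC was at 0 in untreated WT and KO. The summed CPM of these markers ranged from 1.27 to 2.46 in untreated WT, from 1.55 to 2.79 in DTC, from 12.3 to 17.6 in DTEC and from 5.58 to 7.64 in KO, and SFTPB alone held 14.1 ± 2.79 CPM in DTEC (SD, n = 3). The summed fibroblast list was at 7.99 to 8.91 CPM in untreated WT, with COL1A2, COL3A1, PDGFRA, DCN and LUM at 0, and at 55.0 to 57.8 CPM in DTC, with 2 of 7 markers above the floor. COL1A1 alone held 8.30 ± 0.518 CPM in untreated WT and 55.7 ± 1.32 CPM in DTC (SD, n = 3), nearly all of this sum. The endothelial list was at 58.5 to 61.4 CPM in untreated WT and 122 to 142 CPM in DTEC, where 3 of 4 were above the floor and PECAM1 alone held 92.1 ± 2.74 CPM. The leukocyte list was at 27.0 to 33.9 CPM in untreated WT and 38.9 to 55.3 CPM in DTC, where 3 of 6 were above the floor. CD68 alone held 29.8 ± 3.39 CPM in untreated WT and 46.4 ± 8.93 CPM in DTC, where PTPRC and CD3E had means of 0.0896 and 0.0225 CPM. The part of these marker levels in the results was not tested, and in bulk RNA fewer cells that express a gene and less RNA per cell cannot be told apart. The labels put all libraries in 1 batch, so no value within batches exists.

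After 7 days of erlotinib STAT3, JAK1, STAT6, STAT5A and SOCS2 rose, while SOCS3, LIFR and STAT5B fell. After 28 days JAK1, STAT3 and STAT6 were still above untreated WT, whereas SOCS2 and JAK2 had dropped below it and SOCS3, LIFR and STAT5B were lower. Calls rest on an adjusted p under 0.05 in edgeR's quasi-likelihood test. In DTC 8 of the 10 genes were called, 5 higher and 3 lower, in a comparison where 67.3% of all tested genes were called (34.0% higher and 33.3% lower), and scaling to total counts alone turned this into 7 higher and 1 lower. In DTEC 8 were called, 3 higher and 5 lower, against 52.3% of all genes (26.0% higher and 26.3% lower). From DTC to DTEC 5 were called, 1 higher and 4 lower, against 55.4% of all genes (28.8% higher and 26.6% lower). Of the 10 genes 0 were called in KO, where 4.31% of all genes were (2.76% higher and 1.55% lower). With a fold of at least 2 the counts were 4 in DTC against 36.2% of all genes, 0 in DTEC against 19.9%, 3 from DTC to DTEC against 22.4%, and 0 in KO against 1.30%. The shares called in DTC and DTEC were thus set in comparisons where most genes moved. The comparisons of DTC, DTEC and KO share the untreated WT libraries, so their values are set side by side.

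**Figure D1:**
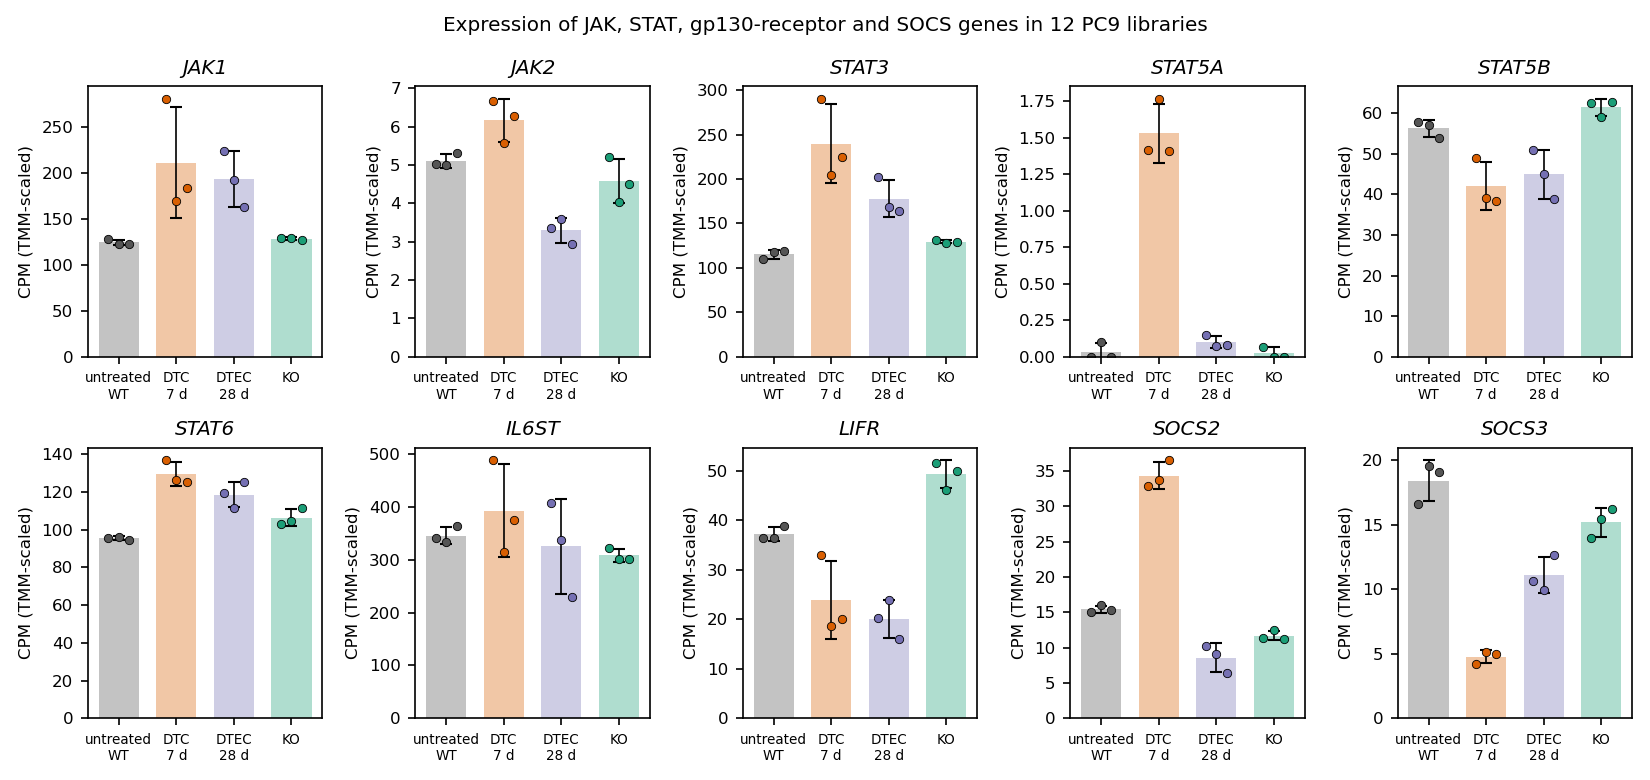
Level of each gene in CPM (vertical axis, from 0) in the 4 groups, with 1 point per library, bars at the mean and error bars of 1 SD over 3 libraries. SOCS2 is highest and SOCS3 lowest in the DTC libraries, and STAT5A leaves the counting floor in DTC.

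Of the receptor chains, IL6ST (ENSG00000134352, chr5:55935095-55994993, minus strand, GRCh38), the signal-transducing chain, was the most abundant of the 10 genes per kilobase and was called in no comparison under TMM scaling of all 12 libraries. Its levels were 340, 333 and 363 CPM in untreated WT, 488, 315 and 375 CPM in DTC, and 407, 337 and 230 CPM in DTEC. Both drug-treated groups straddled the untreated range, with the highest DTC value in DTC replicate 1. The log2 fold change was 0.18 (SE 0.182, adjusted p 0.385) in DTC and -0.09 (SE 0.182, adjusted p 0.706) in DTEC. Scaling to total counts alone called IL6ST higher in DTC, at 0.54 (adjusted p 0.0176), and without DTC replicate 1 the value was 0.04 (adjusted p 0.869). Between DTEC and DTC the difference was -0.27 (SE 0.182, adjusted p 0.219), and IL6ST was called lower under upper-quartile scaling (-0.44, adjusted p 0.0456), under total counts alone (-0.46, adjusted p 0.0457) and without DTEC replicate 1 (-0.49, adjusted p 0.0398).

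LIFR (ENSG00000113594, chr5:38474963-38608354, minus strand), the chain that adds LIF binding, fell in both drug-treated groups. Its levels were 36.4, 36.4 and 38.8 CPM in untreated WT, 33.0, 18.5 and 20.1 CPM in DTC, and 20.3, 23.8 and 16.1 CPM in DTEC. Every drug-treated library lay below every untreated one, and DTC replicate 1 lay nearest to them. The log2 fold change was -0.64 in DTC (SE 0.188, adjusted p 0.00779) and -0.89 in DTEC (SE 0.189, adjusted p 0.00127). The DTC call was lost without DTC replicate 2 (-0.43, adjusted p 0.0617), without DTC replicate 3 (-0.48, adjusted p 0.0612) and under total counts alone (-0.29, adjusted p 0.19), and without DTC replicate 1 the value was -0.91 (adjusted p 1.31e-05). DTEC and DTC overlapped, with a difference of -0.25 (adjusted p 0.274) that turned to 0.03 without DTC replicate 1. LIFR shares 629 exon bases with the antisense gene LIFR-AS1, whose level was 0.477 CPM in untreated WT, 0.739 CPM in DTC and 0.918 CPM in DTEC. Whether the counting used strand is not stated.

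RefSeq promoter windows of 250 bases before a transcript start were at hand for 9 of the 10 genes, 19 windows in all, and were searched for the palindromic STAT dimer motif TTCNNNGAA and its longer-spaced form TTCNNNNGAA, which read the same on both strands. TTCNNNGAA was found in 2 windows, both of LIFR, and TTCNNNNGAA in 1 window of STAT5A. The windows of SOCS3, STAT5B, STAT6 and LIFR hold none of the 250 bases before the outermost GENCODE 29 start of the gene. Those bases were not searched, so a gene without a match here may still carry the motif there. Over the 34943 windows in the table, 6.56% held the first motif and 5.39% the second. The 2 windows below hold no exon of GENCODE 29 and are shown because they carry the matches in the genes with the largest DTEC fall and the largest DTC rise among the 10. Capitals mark the match, at bases -165 to -157 from the start in LIFR and -229 to -220 in STAT5A, and a match is a string of letters, not a measured site. The LIFR window, chr5:38595406-38595655 (GRCh38.p14, minus strand), lies within the gene span before an internal start. The STAT5A window is chr17:42287189-42287438 (GRCh38.p14, plus strand).
LIFR: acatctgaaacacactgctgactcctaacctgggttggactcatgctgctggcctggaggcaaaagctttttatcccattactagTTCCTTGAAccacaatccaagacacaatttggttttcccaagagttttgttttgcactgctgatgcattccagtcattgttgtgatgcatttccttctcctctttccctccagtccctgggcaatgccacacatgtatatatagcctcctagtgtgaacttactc
STAT5A: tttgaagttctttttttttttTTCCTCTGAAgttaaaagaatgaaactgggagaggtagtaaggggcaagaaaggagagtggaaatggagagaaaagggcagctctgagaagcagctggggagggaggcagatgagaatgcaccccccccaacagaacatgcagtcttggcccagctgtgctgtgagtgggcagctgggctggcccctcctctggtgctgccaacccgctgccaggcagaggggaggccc

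Of the kinases, JAK1 (ENSG00000162434, chr1:64833229-64966504, minus strand), which is the main kinase on gp130, rose at both times. It stood at 128, 123 and 122 CPM in untreated WT, 280, 170 and 183 CPM in DTC, and 224, 193 and 163 CPM in DTEC. No drug-treated library reached down to the untreated range, and DTC replicate 1 was far above the other 2. The log2 fold change was 0.76 in DTC (SE 0.162, adjusted p 0.000793), 0.54 there without DTC replicate 1 (adjusted p 0.000184), and 0.64 in DTEC (SE 0.162, adjusted p 0.00445). Between DTEC and DTC the difference was -0.13 (SE 0.161, adjusted p 0.521), and its sign turned to 0.11 without DTC replicate 1.

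JAK2 (ENSG00000096968, chr9:4984390-5128183, plus strand), a partner kinase of many cytokine receptors, was scarce. It stood at 5.02, 4.99 and 5.31 CPM in untreated WT, 6.66, 5.56 and 6.28 CPM in DTC, and 3.35, 3.59 and 2.94 CPM in DTEC. The 3 groups did not overlap, with DTC on top and DTEC at the bottom. In DTC the log2 fold change of 0.27 (SE 0.149, adjusted p 0.121) did not pass, although it did under total counts alone (0.63, adjusted p 0.00197) and without DTC replicate 2 (0.40, adjusted p 0.0448). JAK2 fell in DTEC against untreated WT (-0.64, SE 0.153, adjusted p 0.00305) and against DTC (-0.91, SE 0.153, adjusted p 0.000181).

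STAT3 (ENSG00000168610, chr17:42313324-42388568, minus strand), the chief transcription factor below gp130, rose in both drug-treated groups. The untreated libraries held 110, 117 and 119 CPM, the DTC libraries 290, 205 and 224 CPM, and the DTEC libraries 202, 168 and 164 CPM. The groups stood apart in the order DTC, DTEC, untreated WT, and DTC replicate 1 was again the highest. The rise was 2.08-fold in DTC (log2 1.06, SE 0.125, adjusted p 3.8e-06; log2 0.93 without DTC replicate 1) and 1.54-fold in DTEC (log2 0.62, SE 0.124, adjusted p 0.000763). STAT3 fell from DTC to DTEC by 0.43 on the log2 scale (SE 0.124, adjusted p 0.00886), by 0.29 without DTC replicate 1, and this call was lost when only those 2 groups were fitted (adjusted p 0.0542).

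STAT5A and STAT5B are near-identical transcription factors that lie side by side with STAT3 on chromosome 17, with gaps of 10839 bases between STAT5B and STAT5A and 1380 bases between STAT5A and STAT3. STAT5A (ENSG00000126561, chr17:42287547-42311943, plus strand) was read at 0, 0.101 and 0 CPM in untreated WT, 1.42, 1.77 and 1.41 CPM in DTC, and 0.152, 0.0764 and 0.0824 CPM in DTEC. Only the DTC libraries stood clearly off the floor, at 42, 60 and 48 counts, against at most 5 counts in any other library. Against the floor of 3 counts per library, STAT5A was at least 16.6-fold higher in DTC than in untreated WT (adjusted p 2.8e-05). It fell from DTC to DTEC (log2 -3.82, SE 0.669, adjusted p 0.00025), and DTEC against untreated WT did not pass (adjusted p 0.195), although it did without untreated WT replicate 2 (adjusted p 0.0209).

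STAT5B (ENSG00000173757, chr17:42199168-42276707, minus strand) moved the other way, from 53.9 to 57.8 CPM in untreated WT to 38.3 to 48.9 CPM in DTC and 38.9 to 50.9 CPM in DTEC. The drug-treated groups overlapped each other and lay wholly below untreated WT. The log2 fold changes were -0.42 in DTC (SE 0.117, adjusted p 0.00566) and -0.32 in DTEC (SE 0.117, adjusted p 0.0311). The DTC call was lost without DTC replicate 3 (-0.31, adjusted p 0.0576) and under total counts alone (-0.06, adjusted p 0.637). The DTEC call was lost in 8 of 13 alternatives, among them leaving out any 1 library of untreated WT, DTEC replicate 2 or DTEC replicate 3, with values of -0.35 to -0.24. Of the 8 nonzero STAT5A values 1 was a whole number, and of the 12 STAT5B values 2 were, so the counts of this pair include reads that were shared out between genes and are uncertain. STAT5A took 0.0291 to 0.0452 of the STAT5B level in DTC and at most 0.00299 of it in any other library.

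STAT6 (ENSG00000166888, chr12:57095408-57132139, minus strand), the STAT of interleukin 4 and 13 signalling, ranged from 94.4 to 96.3 CPM in untreated WT, from 126 to 137 CPM in DTC and from 112 to 125 CPM in DTEC. The 3 groups did not overlap, DTC and DTEC by a narrow margin. STAT6 rose by 0.44 on the log2 scale in DTC (SE 0.0855, adjusted p 0.000383) and by 0.31 in DTEC (SE 0.0855, adjusted p 0.00669). The DTEC call was lost without the filter on low counts (0.32, adjusted p 0.0532). The STAT6 difference of -0.13 from DTC to DTEC did not pass (adjusted p 0.226) but did under total counts alone (-0.31, adjusted p 0.00551).

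Among the feedback inhibitors, SOCS2 (ENSG00000120833, chr12:93569814-93583487, plus strand) rose at 7 days and was below its starting level at 28 days. It stood at 15.0, 16.0 and 15.3 CPM in untreated WT, 32.9, 33.7 and 36.5 CPM in DTC, and 10.3, 9.13 and 6.35 CPM in DTEC. The groups did not overlap, and DTEC had the widest relative spread. SOCS2 was 2.23-fold higher in DTC than in untreated WT (log2 1.16, SE 0.141, adjusted p 4.89e-06) and lower in DTEC than in untreated WT (log2 -0.85, SE 0.145, adjusted p 0.000223). Between DTC and DTEC it fell by 2.003 on the log2 scale (SE 0.146, adjusted p 7.59e-08). The antisense gene SOCS2-AS1 shares 277 exon bases with SOCS2, 4.09% of its exons, and stood at 1.00 CPM in untreated WT, 8.08 CPM in DTC and 1.15 CPM in DTEC, and its part in the SOCS2 counts was not tested.

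SOCS3 (ENSG00000184557, chr17:78356778-78360077, minus strand), which blocks gp130 and its JAK kinases, moved opposite to SOCS2 at 7 days. The untreated libraries held 16.6, 19.5 and 19.1 CPM, the DTC libraries 4.22, 5.15 and 4.96 CPM, and the DTEC libraries 10.7, 9.97 and 12.7 CPM. The groups stood apart, with DTC at the bottom and DTEC between. In DTC SOCS3 was at 26.0% of its untreated level (log2 -1.94, SE 0.132, adjusted p 1.44e-08), and in DTEC at 60.4% (log2 -0.73, SE 0.125, adjusted p 0.000242). The rise from DTC to DTEC was 2.32-fold (log2 1.22, SE 0.132, adjusted p 3.49e-06). The calls for SOCS2 and SOCS3 in these 3 comparisons were kept under all 13 alternatives.

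**Figure D2:**
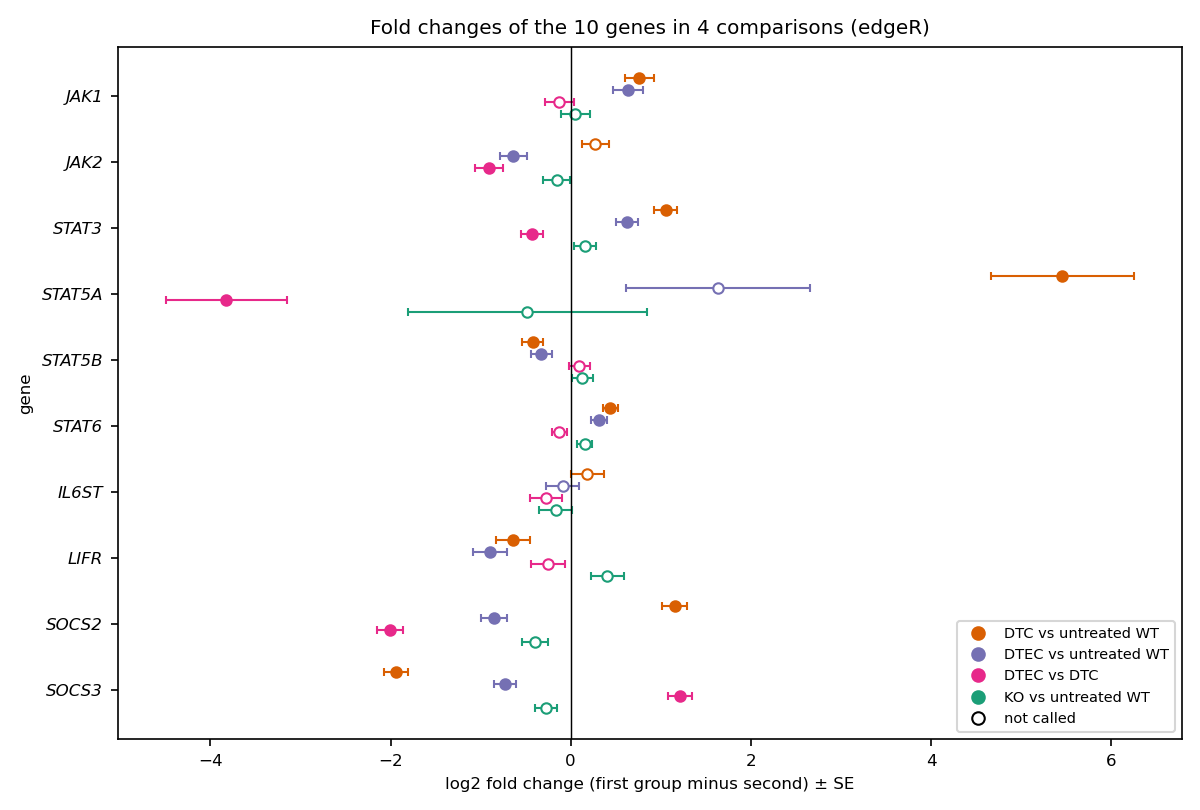
Fitted log2 fold change of each gene (horizontal axis, first group minus second) in 4 comparisons, with bars of 1 SE, filled points where the gene was called and open points where it was not. SOCS3 and SOCS2 lie on opposite sides of 0 in DTC (-1.94 and 1.16), and all 10 KO points are open.

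Per kilobase of GENCODE 29 exon, which allows genes of different length to be ordered, IL6ST led in untreated WT at 37.2 ± 1.67 CPM per kb (SD, n = 3), followed by JAK1 at 19.7 ± 0.494. STAT3 at 13.1 ± 0.557 and STAT6 at 13.1 ± 0.134 did not differ beyond their spread. Below them came STAT5B at 8.73 ± 0.322, SOCS3 at 6.73 ± 0.574, LIFR at 3.13 ± 0.117, SOCS2 at 2.28 ± 0.0753, JAK2 at 0.828 ± 0.0283 and STAT5A at 0.00586 ± 0.0102, each apart from its neighbours. In DTC the level of SOCS2, 5.07 ± 0.282 CPM per kb, stood above those of LIFR (2.01 ± 0.668) and SOCS3 (1.75 ± 0.179), which overlapped each other. IL6ST, JAK1 and STAT3 overlapped as neighbours in DTC, and in DTEC so did IL6ST with JAK1 and LIFR with SOCS2. KO had the order of untreated WT, with STAT3 and STAT6 again overlapping.

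**Figure D3:**
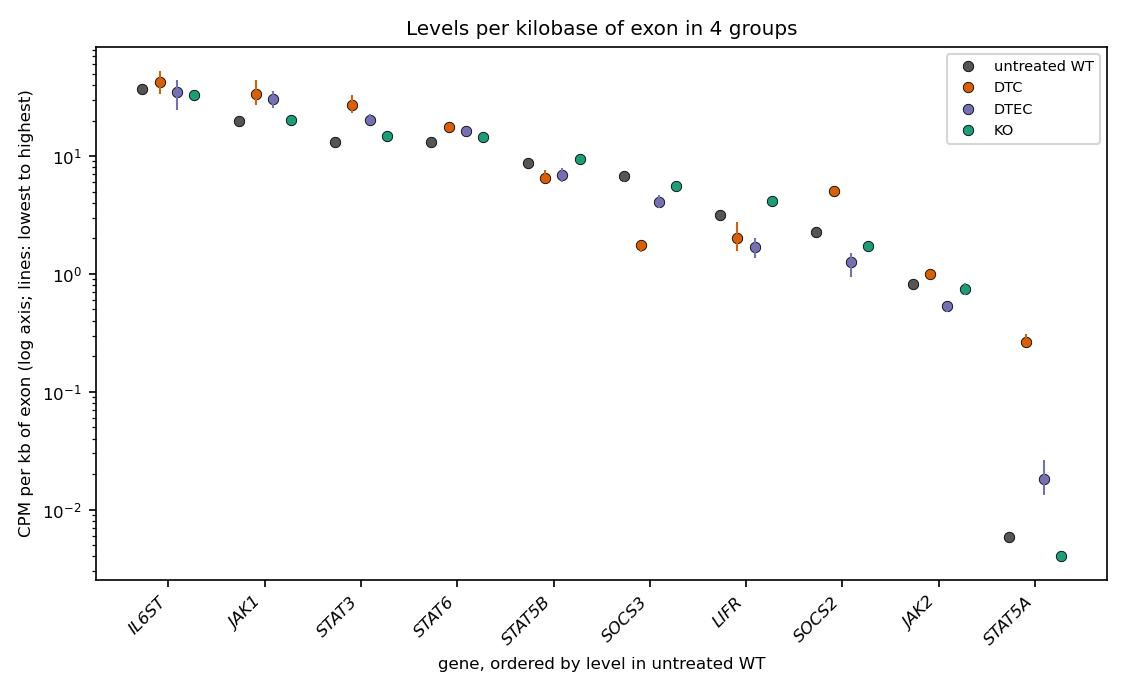
Mean level per kilobase of exon (logarithmic vertical axis, CPM per kb) of the 10 genes in 4 groups, with lines from the lowest to the highest of 3 libraries where the lowest is above 0. SOCS2 passes SOCS3 in DTC only, and the lowest DTC level, that of STAT5A, is 0.266.

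The remaining genes of the pathway were counted over 5 lists, and a list is described by its counts and its median log2 fold change beside that of all tested genes, 0.06 in DTC, 0.02 in DTEC, -0.01 from DTC to DTEC and -0.01 in KO. For the 10 genes themselves the medians were 0.36, -0.21, -0.26 and -0.05.

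IL-6 family ligands and their other receptor chains numbered 15, of which 12 were tested. In DTC 5 were higher and 4 lower (7 and 2 under total counts alone) with a median of 0.02, and IL6 itself, the founding cytokine of the family, went from 0.627, 0.135 and 0.173 CPM in untreated WT to 10.5, 18.4 and 15.5 CPM. The DTC libraries held no IL6 value near the untreated ones, and the log2 rise was 5.54 (SE 0.393, adjusted p 2.48e-08). EBI3, a subunit of interleukins 27 and 35, rose from 0.0299 to 0.169 CPM to 4.43 to 5.36 CPM, IL11RA, the interleukin 11 receptor, from 0.450 ± 0.0544 CPM (SD, n = 3) to 4.23 ± 0.344 CPM, and CTF1, a LIFR ligand, from 0.998 ± 0.110 CPM to 4.67 ± 1.10 CPM (adjusted p 8.07e-08, 3.48e-06 and 7.17e-07). None of the 12 IL11RA values was whole, so its counts include shared reads.

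In DTEC 4 were higher and 6 lower, with a median of -0.33. CTF1 was at 5.37 ± 0.518 CPM (log2 2.42, adjusted p 8.77e-07). IL6R, the specific IL-6 receptor chain, fell from 5.68 ± 0.685 to 2.78 ± 0.210 CPM (log2 -1.03, adjusted p 0.000115). In DTC the IL6R call (log2 -0.48, adjusted p 0.0154) was lost in 7 alternatives, among them without untreated WT replicate 2 or 3 or DTC replicate 2 or 3. LIF ranged from 67.9 to 72.9 CPM in untreated WT, from 64.0 to 67.0 CPM in DTC and from 31.9 to 37.5 CPM in DTEC. Its DTC difference did not pass (log2 -0.10, adjusted p 0.321), but under total counts alone LIF was called higher there (0.25, adjusted p 0.0218), and it fell in DTEC (log2 -0.99, adjusted p 7.72e-07).

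From DTC to DTEC 2 genes of this list rose and 7 fell, with a median of -0.70. IL6 fell to 0.518, 0.573 and 0.330 CPM (log2 -4.98, SE 0.376, adjusted p 1.22e-07), and its DTEC level did not differ from untreated WT by the test (log2 0.56, adjusted p 0.349), although it was called higher without untreated WT replicate 1 (log2 1.58, adjusted p 0.0106). EBI3 (log2 -2.95), IL11 (log2 -2.38) and IL11RA (log2 -1.57) fell as well. OSM, the ligand of OSMR, was at 0 in all but 1 DTC library and was not tested. OSMR, its receptor chain, stood at 164 to 187 CPM in untreated WT and 107 to 181 CPM in DTC, and its DTC difference of -0.38 (adjusted p 0.103) passed without DTC replicate 1 (-0.59, adjusted p 0.00968).

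All 5 other JAK and STAT genes were tested, and 4 were higher and 0 lower in DTC with a median of 1.77. STAT2, which carries type I interferon signals, went from 11.3, 12.6 and 15.2 CPM to 91.8, 98.8 and 82.7 CPM in DTC and 43.7, 37.97 and 41.0 CPM in DTEC. JAK3, the kinase of the common gamma chain, went from 3.77 ± 0.143 CPM to 12.9 ± 1.25 CPM and 13.7 ± 1.00 CPM. These were log2 rises of 2.81 and 1.65 for STAT2 (adjusted p 5.85e-10 and 2.19e-07) and 1.77 and 1.86 for JAK3 (adjusted p 2.4e-08 and 6.3e-08). TYK2, another kinase of gp130 and interferon receptors, rose in DTC (log2 0.72, adjusted p 0.000267) and was not called in DTEC (log2 -0.11, adjusted p 0.498).

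In DTEC 3 genes of this list were higher and 1 lower (3 and 0 under total counts alone), with a median of 1.32. STAT4 was higher (log2 1.32, adjusted p 0.0172), but without untreated WT replicate 2 or DTEC replicate 2 its call was lost, and the list then had 2 called genes. From DTC to DTEC 0 rose and 4 fell, with a median of -0.83, led by STAT4 (log2 -1.18, adjusted p 0.0159, lost without DTC replicate 3 or DTEC replicate 3) and STAT2 (log2 -1.16, adjusted p 3.49e-06). Few STAT2 values (1 of 12) and JAK3 values (5 of 12) were whole.

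All 16 other negative regulators were tested, and in DTC 4 were higher and 9 lower, with a median of -0.38, against 6 higher and 5 lower under total counts alone. PTPN11, the SHP2 phosphatase that docks on the same part of gp130 as SOCS3, fell from 351, 334 and 348 CPM to 191, 126 and 131 CPM (log2 -1.205, SE 0.152, adjusted p 6.92e-06). Of the 12 PTPN11 values 3 were whole, so its counts include shared reads. SH2B3, an adaptor that restrains JAK2, fell from 34.0 ± 0.701 to 13.3 ± 2.22 CPM (log2 -1.35, adjusted p 4.01e-07). PTPN6, the SHP1 phosphatase, rose from 23.6 ± 1.38 to 51.8 ± 1.18 CPM (log2 1.14, adjusted p 2.21e-07). SOCS1, which blocks JAK kinases, was called at log2 1.196 (adjusted p 0.0165), lost without untreated WT replicate 1 or DTC replicate 2.

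In DTEC 3 regulators were higher and 7 lower, with a median of -0.23, and PTPN6 remained above untreated WT at 47.5 ± 5.80 CPM (log2 1.01, adjusted p 1.91e-06). Of the regulators 6 rose and 3 fell from DTC to DTEC, with a median of 0.17, against 2 rising and 5 falling under total counts alone. SOCS1 fell by 2.32 on the log2 scale (adjusted p 0.000458). The regulator list thus had no stable direction in DTC or from DTC to DTEC across scalings.

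Of 19 other JAK-coupled receptor chains 17 were tested, and 9 were higher and 5 lower in DTC (10 and 2 under total counts alone), with a median of 0.61. IFNGR1, the interferon gamma receptor, rose from 58.6, 52.7 and 54.5 CPM to 213, 333 and 306 CPM (log2 2.36, SE 0.168, adjusted p 2.24e-08), and EPOR, the erythropoietin receptor, from 1.63 ± 0.563 to 11.6 ± 2.93 CPM (adjusted p 3.27e-07). IL2RG, the common gamma chain, held 0.0299, 0 and 0.115 CPM in untreated WT, 13.1, 7.48 and 10.7 CPM in DTC, and 0.0609, 0 and 0.110 CPM in DTEC (adjusted p 2.56e-08 in DTC). Like STAT5A and IL6, it was high in DTC and back near the untreated level in DTEC. CRLF2, the thymic stromal lymphopoietin receptor, rose from 0.772 ± 0.171 to 6.05 ± 0.383 CPM (adjusted p 2.55e-08). Of its 12 values 5 were whole, so its counts include shared reads.

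In DTEC 10 chains were higher and 3 lower, with a median of 0.55. EPOR was at 6.37 ± 0.965 CPM (adjusted p 2.67e-05), IL10RB, a chain of interleukin 10 and lambda interferon receptors, at 21.5 ± 3.04 CPM against 8.84 ± 1.197 (adjusted p 1.13e-05), and LEPR, the leptin receptor, at 19.2 ± 1.05 CPM against 8.44 ± 1.32 (adjusted p 5.33e-06). No value of IL10RB or LEPR was whole. Of the chains 5 rose and 5 fell from DTC to DTEC, with a median of -0.09, among them IL2RG (adjusted p 8.06e-08), CRLF2 (log2 -2.17) and IFNGR1 (log2 -1.89) downward and IL20RA, a receptor chain for interleukins 19, 20 and 24, upward (log2 2.07, adjusted p 1.41e-09).

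Of 28 STAT3 target genes 23 were tested, and in DTC 8 were higher and 9 lower, with a median of -0.03. The acute-phase genes SAA1 and SAA2 rose, SAA1 from 2.12, 2.77 and 1.59 CPM to 50.2, 52.4 and 61.8 CPM (log2 4.67, SE 0.397, adjusted p 4.96e-07). SAA1 and SAA2 are near-identical, 3 of 12 and 0 of 12 of their values were whole, and the split between them is uncertain. ICAM1, an adhesion molecule, rose from 39.0 ± 1.59 to 386 ± 59.7 CPM (log2 3.31, adjusted p 2.4e-09), and FOS, an immediate-early gene, fell from 22.4, 26.5 and 25.4 CPM to 3.04, 7.89 and 4.398 CPM (log2 -2.27, adjusted p 3.17e-06).

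In DTEC 11 targets were higher and 6 lower (12 and 4 under total counts alone), with a median of 0.42. PIM1, a survival kinase, stood at 21.9, 23.2 and 21.1 CPM in untreated WT, 22.6, 21.3 and 20.8 CPM in DTC, and 93.7, 92.5 and 93.6 CPM in DTEC (log2 2.08, SE 0.0911, adjusted p 1.15e-09). The DTEC libraries lay far above both other groups, which overlapped. ICAM1 (log2 2.00, adjusted p 5.44e-07) and LRG1, a secreted acute-phase glycoprotein (log2 1.53, adjusted p 2.18e-07), were also higher, and NNMT, a nicotinamide methyltransferase, was at 6.73, 3.67 and 1.07 CPM, at least 41.4-fold above the floor of 3 counts per library in untreated WT (adjusted p 1.85e-05). From DTC to DTEC 13 targets rose and 5 fell, with a median of 0.70, and PIM1 (log2 2.11) and FOS (log2 2.76) rose while SAA1 (log2 -3.58) and SAA2 (log2 -3.54) fell.

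**Figure D4:**
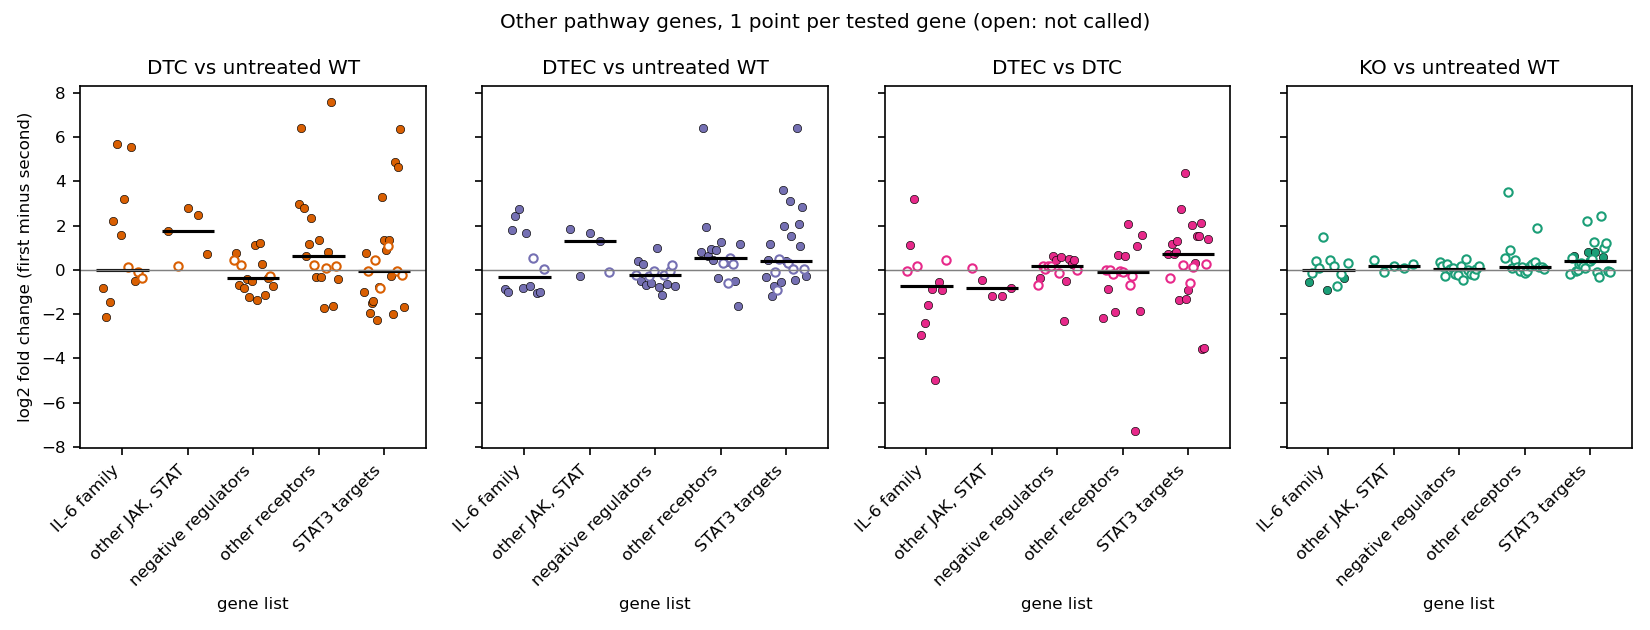
Log2 fold change (vertical axis) of each tested gene in 5 lists of other pathway genes, 1 panel per comparison, with filled points for called genes, open points for the others and a black line at the list's median. In DTC the list of other JAK and STAT genes has a median of 1.77, and in KO 7 points are filled.

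In KO none of the 10 genes was called by edgeR's test, with 3 at an unadjusted p under 0.05, and DESeq2 called 0. The share of all tested genes at that unadjusted p was not counted, so the 3 cannot be set against it. These 3 were LIFR, at 51.6, 46.2 and 50.01 CPM against 36.4 to 38.8 in untreated WT (log2 0.41, SE 0.185, adjusted p 0.29), SOCS2, at 11.4, 12.5 and 11.2 CPM against 15.0 to 16.0 (log2 -0.40, SE 0.143, adjusted p 0.154), and SOCS3, at 14.0, 15.4 and 16.2 CPM against 16.6 to 19.5 (log2 -0.28, SE 0.124, adjusted p 0.28). Each KO library lay outside the untreated range for these 3 genes. JAK1, JAK2 and STAT5A overlapped untreated WT, and STAT3, STAT5B, STAT6 and IL6ST did not, with log2 differences of 0.16, 0.13, 0.16 and -0.17 and adjusted p of 0.564, 0.643, 0.392 and 0.706. In all, 7 of the 10 did not overlap, in a comparison where 35.7% of all tested genes did not. The shares without overlap were 9 of 10 in DTC against 68.9% of all genes, 8 of 10 in DTEC against 62.4%, and 6 of 10 from DTC to DTEC against 56.7%. With filtering, scaling and fitting restricted to the KO and untreated WT libraries, 4 of the 10 were called, in a fit that called 2656 of 15183 tested genes. LIFR (log2 0.43, adjusted p 0.000924), STAT3 (0.19, adjusted p 0.0339) and STAT6 (0.18, adjusted p 0.0369) were higher and SOCS2 (-0.37, adjusted p 0.0113) lower.

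Of the lists, the IL-6 family had 3 lower genes in KO, IL11 (log2 -0.89, adjusted p 0.0241), CLCF1 (log2 -0.52, adjusted p 0.0124) and LIF (log2 -0.36, adjusted p 0.033), but this count fell to 0 or 1 when any 1 untreated WT or KO library was left out. LIF stood at 52.9, 53.8 and 56.5 CPM in KO. The STAT3 target list had 4 higher and 0 lower, BCL6 (log2 0.64, adjusted p 0.000705), PIM1 (log2 0.61, adjusted p 0.00149), LRG1 (log2 0.81, adjusted p 0.0016) and ICAM1 (log2 0.80, adjusted p 0.0165), with a list median of 0.40. Without the filter on low counts 10 targets were called, against 1147 of 31466 genes in all. Many of those 31466 genes were too scarce for the main test, so the 2 shares are not of like genes. By edgeR's test the other JAK and STAT genes, the negative regulators and the receptor chains had 0 called in KO, with medians of 0.16, 0.05 and 0.14. In these lists 1, 3 and 4 genes had an unadjusted p under 0.05, again with no share of all genes counted. DESeq2 called 1, 1 and 2 genes of these lists, against 1107 of 31457 genes in all. The 31457 also take in scarce genes, and any that DESeq2 left without an adjusted p, so these shares are not of like genes either. The fit of the compared libraries alone called 1, 4 and 2, against 2656 of 15183 genes in all. JAK3 was called higher by DESeq2 (log2 0.46, adjusted p 0.0432), against an adjusted p of 0.0677 by edgeR. IL11, CLCF1, BCL6 and, in KO, JAK3 were named after their values were seen.

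Genes with the profile most like a member's were sought among 9792 genes with a mean of at least 10 CPM, by the root mean square difference of centred log2 levels over the 12 libraries. For STAT3 these were GPR161 at 0.0642 and BHLHE40 at 0.0853, where the profile of STAT3 itself has an SD of 0.425. IL6ST was nearest to TMEM30A (0.0905) and ZNF229 (0.106), with an SD of its own of 0.252. LIFR was nearest to TLN2 (0.146) and POLQ (0.168), with an SD of 0.561, and SOCS3 to DDX51 (0.110) and E2F4 (0.112), with an SD of 0.712. The libraries share groups and scaling, so likeness over them is a description.

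**Figure D5:**
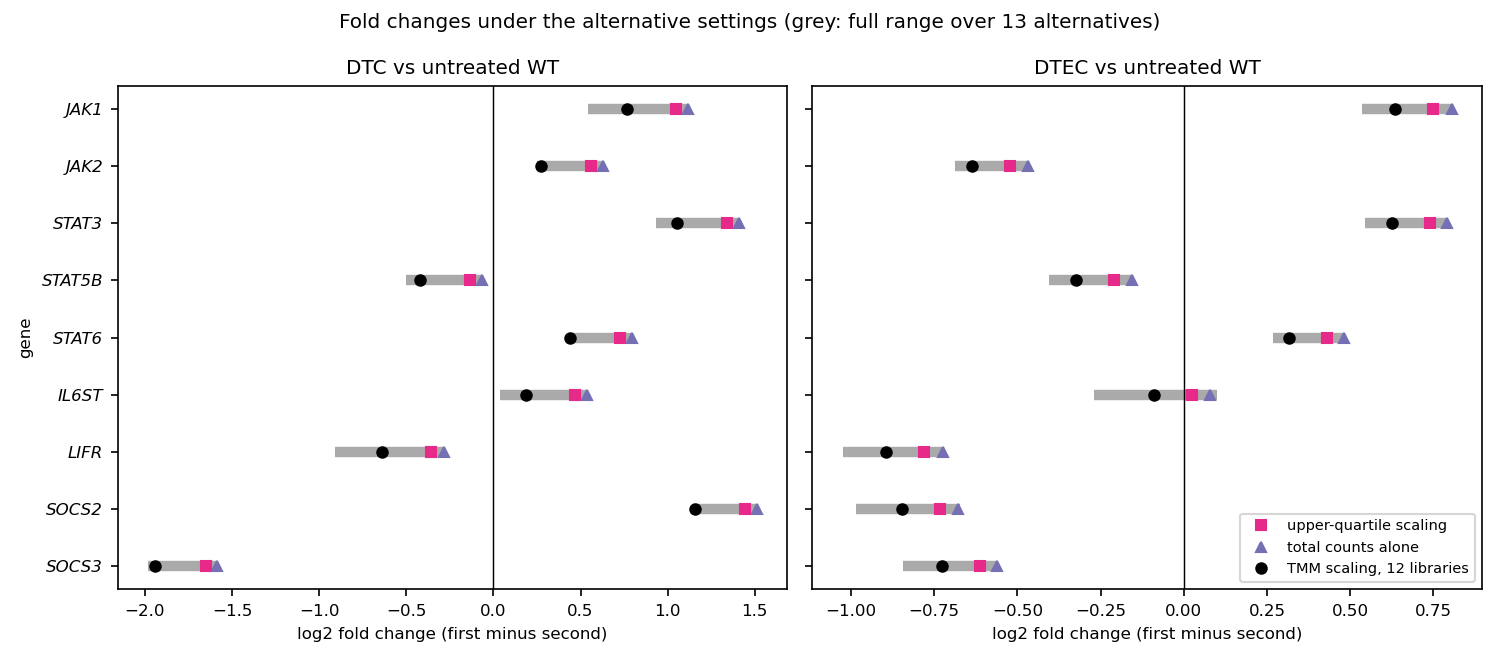
Log2 fold change (horizontal axis) of 9 genes in DTC and DTEC against untreated WT under TMM scaling (black points), upper-quartile scaling (squares), total counts alone (triangles) and the full range of 13 alternatives (grey bars); STAT5A, at the floor in untreated WT, is not drawn. The bar of IL6ST crosses 0 in DTEC and no other bar does.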

How the data were processed

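The authors deposited 1 table of expected counts, estimated read counts per gene that need not be whole, for 12 libraries of PC9 cells. Per the submitters' processing notes, RSEM 1.3.1, Bowtie2 2.5.2, DESeq2 1.40.2 and GRCh38 were used; the role of each tool, the annotation release and the use of strand in counting are not given in the sources used here. Per the labels' protocols the libraries came from a stranded kit for messenger RNA. The table held 0 columns of other samples.

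Each value was first rounded to a whole count. edgeR 4.0.16 (R 4.3.3, limma 3.58.1) was used with TMM scaling and robust quasi-likelihood tests in 1 fit over the 12 libraries, with a mean for each group. filterByExpr kept 17115 genes, and p-values were adjusted over these by Benjamini-Hochberg. Genes were called at an adjusted p under 0.05. Standard errors (SE) of log2 fold changes were taken from the test's F value. Folds against a group with at most 3 counts in every library are lower bounds against 3 counts per library. Floors cover counting error only, since reads carried no molecular identifiers. Fits were tested on simulated counts of 16650 genes with 1 common mean for all groups. In DTC 100 genes were changed by a log2 of 1 and 100 by a log2 of 2, up and down alike. Of these 82% and 99% were recovered, and 0.079% of the unchanged genes were called. The changed genes were drawn only from those above a set mean count, so the recovered shares do not cover scarce genes such as STAT5A. Few genes moved in the simulation, so it cannot check the scaling in comparisons where most genes moved.

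The 10 genes and the 5 lists were chosen with earlier results of these data known. The text names every one of the 10 genes, the other JAK and STAT genes, IL6, LIF, OSM, IL6R, OSMR and TDP1, and per list and comparison up to 4 genes with the largest change among those called with a fold of at least 2 and a mean of at least 1 CPM. Some genes that this rule names are not reported here. CRLF2 has more than 1 identifier, and the one in GENCODE 29 was used. Coordinates and exon lengths are those of GENCODE 29 (GRCh38), and promoter sequences are from RefSeq (GRCh38.p14). Profiles were compared on log2(CPM + 0.5). Alternatives were other scalings, no filter on low counts, a replicate block, the compared libraries alone, DESeq2 1.42.0, and each library left out in turn. Groups of 3 libraries against 3 were tested only in fits across all genes.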

Additional observations from a re-analysis of the deposited data

Results flagged for a closer look

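For 5 of the 10 genes the change at 28 days of erlotinib differed from the change at 7 days, by the direct edgeR quasi-likelihood test of DTEC against DTC with Benjamini-Hochberg adjustment. JAK2 differed by -0.91 on the log2 scale (adjusted p 0.000181), each DTEC library lying below each DTC library, and it was the only one of the 5 not called at 7 days and called lower at 28 days. STAT3 differed by -0.43 (adjusted p 0.00886) and STAT5A by -3.82 (adjusted p 0.00025), where the DTEC libraries held at most 5 STAT5A counts. SOCS2 differed by -2.003 (adjusted p 7.59e-08), from above untreated WT at 7 days to below it at 28 days. SOCS3 differed by 1.22 (adjusted p 3.49e-06), and it was below untreated WT at both times. In this comparison 55.4% of all tested genes were called. Groups of 3 libraries were too small to test, gene by gene, for a single library far from the rest. DTC replicate 1 was set apart above by its median gap over all tested genes.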

How the results depend on the processing

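Of 40 fold changes, 10 genes in 4 comparisons, 21 were called, and 16 of these kept their call in all 13 alternatives of their comparison. The 5 that lost it are given beside their values: LIFR and STAT5B in DTC, STAT5B and STAT6 in DTEC, and STAT3 from DTC to DTEC.

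In KO the count of called members went from 0 to 1 without the filter on low counts and to 4 with the compared libraries only. The count of all genes called went from 738 of 17115 to 1147 of 31466 and 2656 of 15183, and to between 321 and 426 with 1 library left out. These leave-out fits have 2 libraries in 1 group. The number of calls among the 10 genes stayed within 1.5 times in the other comparisons and alternatives.

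Signs turned only for differences that were not called under TMM scaling, and 1 of the turned values passed the test, LIF in DTC under total counts alone (adjusted p 0.0218). Under upper-quartile scaling and total counts alone these were LIF in DTC (0.19 and 0.25), IL6ST (0.025 and 0.080) and TYK2 (0.0024 and 0.054) in DTEC, and STAT5B (-0.078 and -0.092) and JAK3 (-0.092 and -0.10) from DTC to DTEC. With 1 library left out the values ran in DTEC from -0.27 to 0.10 for IL6ST, from -0.14 to 0.23 for OSMR and from -0.00997 to 0.085 for TDP1. From DTC to DTEC they ran from -0.31 to 0.11 for JAK1, from -0.017 to 0.197 for STAT5B and from -0.45 to 0.030 for LIFR. In KO they ran from -3.17 to 2.71 for STAT5A, which is at the floor, from -1.04 to 0.29 for IL6 and from -0.42 to 0.38 for STAT4. The cause was not tested.

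Libraries of the same replicate number in different groups deviated together weakly, with r from -0.03 to 0.179 over 18 pairs and a median of 0.0527. Of these pairs 4 were over 0.1. The median was -0.0319 over 36 pairs of unlike number, 2 of them over 0.1. Their own number correlated best in 23 of 36 cases, more often than an even choice among 3 libraries would give. Whether the numbers mark shared handling was not tested. The labels give no shared source for a number, so the main fit had no replicate block. With the replicate block the 10 genes had 8, 8, 5 and 0 calls in DTC, DTEC, DTEC against DTC and KO, as without it. All genes had 11775, 9255, 9732 and 887 calls with the block, against 11520, 8955, 9480 and 738 without it. Depth limits STAT5A, IL2RG, NNMT and EBI3, which are at or near the floor in untreated WT. SAA2, IL6 and STAT4 also came within a few counts of the floor in at least 1 library there.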

Other observations

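Ratios of 2 genes within a library do not depend on how libraries are scaled. The ratio of SOCS2 to SOCS3 in CPM was 0.903, 0.819 and 0.802 in untreated WT and 7.78, 6.54 and 7.37 in DTC. It was 0.966, 0.916 and 0.501 in DTEC and 0.814, 0.809 and 0.694 in the KO libraries. The DTC libraries stood apart from all others, and the DTEC and KO libraries overlapped untreated WT. The ratio of STAT3 to SOCS3, the factor to its feedback inhibitor, was 6.29 ± 0.303 (SD, n = 3) without drug and 8.54 ± 0.748 in KO, against 51.2 ± 15.3 in DTC and 16.2 ± 3.05 in DTEC, with no overlap between any of the 4 groups. LIFR stood at 0.108 ± 0.00135 of the level of IL6ST, its partner chain, without drug, at 0.0600 ± 0.00711 in DTC, at 0.0634 ± 0.0118 in DTEC and at 0.160 ± 0.00671 in KO. The KO libraries were above and the drug-treated libraries below untreated WT in this ratio. These ratios were computed after the values of the genes had been seen and were not tested.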
